A study of Mus musculus with 9 samples.

Results

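The oxidative phosphorylation genes described here are the protein-coding genes whose mouse symbols name structural subunits of the 4 respiratory chain complexes or of ATP synthase (complex V). They were chosen by symbol alone. The symbols were mt-Nd, mt-Co, mt-Atp and mt-Cytb for subunits encoded in mitochondrial DNA. For subunits encoded in the nucleus they were Nduf, Sdh, Uqcr, Cox5 to Cox8 and Atp5. Some subunits fall outside this choice, among them Cox4i1, Cox4i2, Cox7a2l, Ndufab1 and Cyc1. The choice gave 92 of the 46517 genes in the count tables, 13 of them mitochondrially encoded and 79 nuclear. Complex I held 7 mitochondrial and 35 nuclear members, complex II 4 nuclear members, complex III 1 and 8, complex IV 3 and 15, and complex V 2 and 17. Members were placed in complexes by symbol, so Ndufa4, which is named for complex I but is known as a complex IV subunit, was counted in complex I. Atp5s was likewise counted in complex V by its symbol, which differs from what its protein is known for.

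RNA was sequenced in bulk from primary mouse glioblastoma tissue of 3 models on a mixed strain background, with 3 samples of each model and 9 libraries in all. The models are named for their Cre recombinase lines. Synapsin-cre is driven by a promoter of neurons, Nestin-creERT2 by a promoter of neural stem and progenitor cells, and NG2-creERTM by the promoter of Cspg4, which oligodendrocyte precursor cells and pericytes use. The ERT2 and ERTM forms of the recombinase need tamoxifen to act. The comparisons between models ask how tumours started from different cells of origin differ. The tumour-driving alleles, the age and sex of the animals and the tumour site are not given in the sources used here. Nor do the labels state that each sample is a different animal. A p-value below therefore reflects spread between samples, part of which may be technical. In the tests used, the spread of each gene is estimated in part from the other genes tested.

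Oxidative phosphorylation passes electrons from NADH and succinate through complexes I to IV to oxygen, pumps protons across the inner mitochondrial membrane at complexes I, III and IV, and lets them back through ATP synthase to make ATP. Mitochondrial DNA encodes the core membrane subunits of complexes I, III, IV and V as parts of long transcripts read from its strands, while the nucleus encodes all of complex II and every other subunit. Neurons depend on this pathway for most of their ATP, and tumours, glioblastoma among them, are known for making much of theirs by glycolysis.

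Counts in genes ran from 23557398 to 41099967 per library, with a median of 34742585. Values below are TMM-scaled counts relative to the library total (CPM), a level that does not correct for transcript length unless stated. In bulk tissue, fewer cells of a type and less RNA per cell cannot be told apart. Glial markers were present in all libraries, with summed levels from 204 to 7286 CPM for the astrocyte list and from 562 to 6394 CPM for the oligodendrocyte precursor and glioma list. Synapsin-cre replicate 1 stood apart: its summed neuron markers reached 4755 CPM against 70.6 to 749 CPM in the other 8 libraries, and its summed markers of dividing cells 156 CPM against 1274 to 2877 CPM. Nestin-creERT2 replicate 1 held choroid plexus markers, with Ttr at 5690.0 CPM. The part of these cell mixtures in the results below was not tested. Counts of calls and the medians of all nuclear and all mitochondrial members are also given without Synapsin-cre replicate 1.

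The mitochondrial members fell into 2 classes before any comparison between models. The genes mt-Nd1, mt-Nd2, mt-Nd4, mt-Nd5, mt-Nd6, mt-Cytb and mt-Co1 were measured in every library. The other 6 (mt-Nd3, mt-Nd4l, mt-Co2, mt-Co3, mt-Atp6 and mt-Atp8) held 0 to 6 reads in each library and at most 0.180 CPM, where a floor of 3 counts corresponds to 0.0714 to 0.133 CPM. These include the other mitochondrial subunits of complex IV and both mitochondrial subunits of ATP synthase. The part that copies of these genes in the nuclear genome have in the low counts was not tested, but 5 of the 6 have a copy of nearly their whole length there, and multimapping reads (4.97 to 9.50% of each library) were not counted in genes. In a run of 7 unprocessed pseudogenes on chromosome 1 (GRCm38, chr1:24611535-24616197, minus strand, annotation GENCODE vM21), the copies of mt-Co2 (Gm28661, 681 bases), mt-Atp6 (Gm10925, 678 bases), mt-Co3 (Gm28437, 783 bases) and mt-Nd4l (Gm10222, 294 bases) had no base different from the mitochondrial gene, and that of mt-Nd3 (Gm28438, 345 bases) had 1. Between 98.0 and 100% of the 50-base windows of these 5 genes occurred elsewhere in the annotated transcripts. For mt-Atp8 the share was 0%. The annotated copies of mt-Co2 and mt-Atp6 that flank its place are 233 bases apart, the same distance as on mitochondrial DNA, and the 233 bases between them belong to no annotated copy. The copies were themselves nearly empty, with at most 0.606 CPM in any library except for Gm28438, which ranged from 0 to 4.40 CPM.

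At the ends of the run the copies stop within mt-Co1 and mt-Nd4, which were both measured. Stretches of mitochondrial sequence that cross those ends are shown. Capitals mark the longest run of bases shared without a difference with the copy on chromosome 1, and lower case the mitochondrial bases outside that run. For mt-Co1 the run holds 479 bases and the copy 492, so the lower-case bases nearest the capitals still lie within the copy. The first lies in mt-Co1 at chrM:6354-6433 and the second in mt-Nd4 at chrM:11003-11082, both from the annotated transcripts on GRCm38.
mt-Co1: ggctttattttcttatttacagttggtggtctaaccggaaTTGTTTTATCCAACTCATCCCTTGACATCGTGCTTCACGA
mt-Nd4: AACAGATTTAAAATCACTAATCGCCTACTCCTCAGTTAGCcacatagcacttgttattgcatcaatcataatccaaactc
The copy of mt-Co1 (Gm29216) is 492 bases long with 6 differences, and 28.7% of the windows of mt-Co1 occurred in it. Another copy of mt-Co1, Gm13340 on chromosome 2, is 1545 bases long with 37 differences, and 27.5% of the windows occurred there. Windows found in any other annotated transcript made up 51.1% of mt-Co1, so its unshared windows are not simply those outside the copy on chromosome 1. The copy of mt-Nd4 (Gm28439) is 876 bases long with 0 differences, and 62.2% of the windows of mt-Nd4 were shared. The shares were 8.19% for mt-Nd2, 7.61% for mt-Nd5 and 0% for mt-Nd1, mt-Nd6 and mt-Cytb. Levels are therefore compared between these genes per unshared window, with values per kilobase of transcript beside them.

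Per 1000 unshared windows, the mean level over the 9 libraries was 13543 CPM for mt-Co1, which encodes the catalytic core of cytochrome c oxidase, and 4165 CPM for mt-Cytb, the cytochrome b of complex III. It was 2937 CPM for mt-Nd4, 2649.7 CPM for mt-Nd1, 1695 CPM for mt-Nd2 and 1146 CPM for mt-Nd5, which encode membrane-arm subunits of complex I. The gene mt-Nd6, the one member read from the opposite mitochondrial strand, stood lowest at 93.0 CPM. This measure takes it that no read from a shared window was counted, which was not tested. Per kilobase of transcript the levels were 6408 CPM for mt-Co1, 3987 CPM for mt-Cytb, 2514 CPM for mt-Nd1 and 1483 CPM for mt-Nd2. They were 1070 CPM for mt-Nd4, 1031 CPM for mt-Nd5 and 84.2 CPM for mt-Nd6. By that measure mt-Nd4 fell below mt-Nd1 and mt-Nd2.

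The mitochondrial genes differed more between libraries of a model than between models, except for mt-Co1. In the Synapsin-cre libraries mt-Co1 was at 9696, 10910.5 and 9904 CPM, in the Nestin-creERT2 libraries at 8688, 7820.6 and 9620.1 CPM, and in the NG2-creERTM libraries at 10240.3, 11075 and 11147.5 CPM (replicates 1, 2 and 3). All 3 Nestin-creERT2 libraries lay below all 6 of the other models, with Nestin-creERT2 replicate 3 and Synapsin-cre replicate 1 the nearest pair. The differences were small and did not pass edgeR's quasi-likelihood test (Benjamini-Hochberg adjustment). The log2 fold change was 0.31 (SE 0.52, adjusted p 0.865) for NG2-creERTM minus Nestin-creERT2. It was 0.22 (SE 0.52, adjusted p 0.910) for Synapsin-cre minus Nestin-creERT2. The SD of log2 CPM of mt-Co1 over all 9 libraries was 0.17, well below these SEs. The lack of a call therefore does not rest on the spread of mt-Co1 alone.

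For mt-Cytb the Synapsin-cre libraries were at 5053, 3362 and 2595 CPM, the Nestin-creERT2 libraries at 4563, 4504 and 5471 CPM, and the NG2-creERTM libraries at 4373, 4885 and 6239 CPM. Synapsin-cre replicates 2 and 3 were the lowest of the 9 libraries, while replicate 1 lay inside the range of the other models. The gene mt-Nd2 was at 1719, 1314 and 637 CPM in Synapsin-cre, at 1579, 1343 and 2129 CPM in Nestin-creERT2, and at 1826, 1341 and 1961 CPM in NG2-creERTM. Again Synapsin-cre replicate 3 was far below the rest, and the models overlapped. The other complex I genes also overlapped between models. Mean levels in Synapsin-cre, Nestin-creERT2 and NG2-creERTM were 2278 ± 941, 2393 ± 373 and 2547 ± 1031 CPM for mt-Nd1 and 1281 ± 752, 1569 ± 205 and 1574 ± 131 CPM for mt-Nd4 (SD, n = 3). They were 1632 ± 638, 1785 ± 283 and 2223 ± 409 CPM for mt-Nd5 and 30.7 ± 16.2, 51.6 ± 9.48 and 48.7 ± 19.6 CPM for mt-Nd6. Synapsin-cre replicate 3 was the lowest of 9 libraries for 6 of the 7 genes, all but mt-Co1, and NG2-creERTM replicate 3 the highest for 5 of 7. The share of mt-Co1 in the mitochondrial reads differed too. It made up 61.0% of all mitochondrial member reads in Synapsin-cre replicate 3, 51.6% in replicate 2, and 40.7 to 48.8% in the other 7 libraries.

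**Figure D1:**
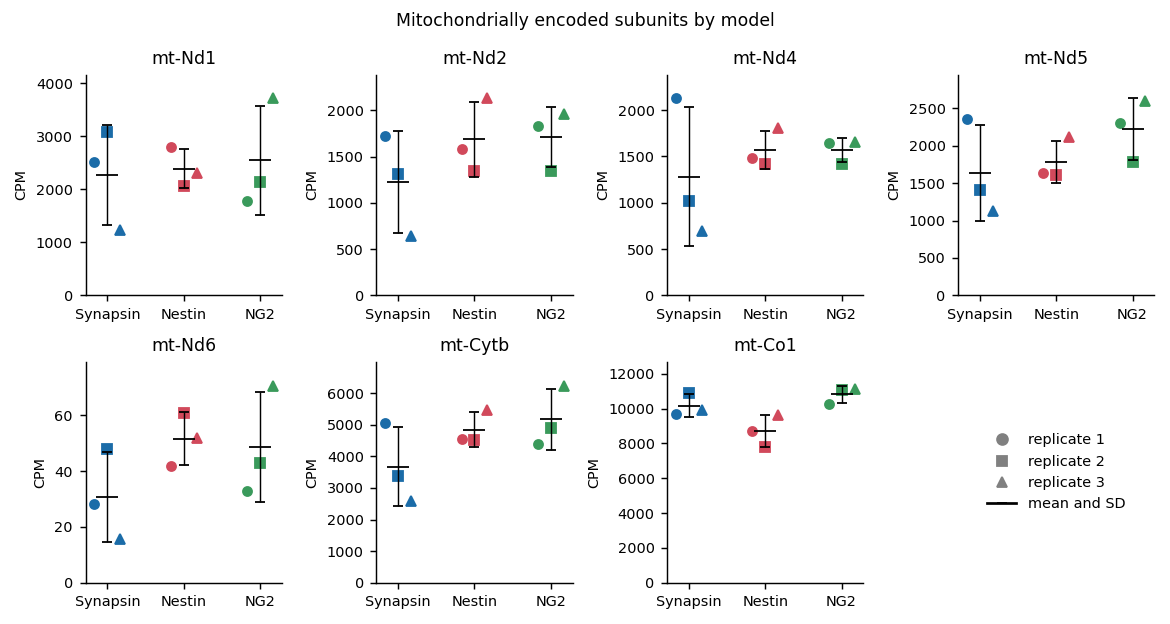
Level of each of the 7 measured mitochondrially encoded subunits in CPM (y axis) by model (x axis), 1 point per library, with the mean and SD of 3 libraries as lines. Synapsin-cre replicate 3 is lowest for every gene but mt-Co1, for which the 3 Nestin-creERT2 libraries (7820.6 to 9620.1 CPM) lie below all others.

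Among the nuclear members, levels per kilobase of transcript ranged from 2.58 to 665 CPM per kb over the 70 genes with a mean of at least 10 CPM. The median was 172 CPM per kb for complex V, 151 for complex IV, 99.4 for complex III, 83.1 for complex II and 71.5 for complex I. Highest was Atp5b, the catalytic beta subunit of ATP synthase, at 665 CPM per kb, followed by Cox6a1, a nuclear subunit of cytochrome c oxidase, at 421. The alpha subunit gene Atp5a1 stood at 323, the complex IV subunit Cox6b1 at 322 and the complex III hinge protein Uqcrh at 289. In complex II, the iron-sulfur subunit Sdhb was at 122 CPM per kb and the flavoprotein Sdha at 89.7. Ndufa4 stood at 270, above the other members counted in complex I.

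Members known as isoforms of heart, skeletal muscle or testis were low. The muscle isoform Cox7a1 ranged from 0.762 to 1.62 CPM, against 67.3 to 123 CPM for its widely expressed partner Cox7a2. Cox8b, also of muscle, reached 3.11 CPM in Nestin-creERT2 replicate 1 and at most 0.277 CPM elsewhere. Of the testis isoforms, Cox8c held 0 reads in all 9 libraries and Cox7b2 at most 0.354 CPM. Cox8b, Cox8c and Cox7b2 were too low to be tested. Cox6b2, another testis isoform, was at 2.56, 1.08 and 6.91 CPM in Synapsin-cre, at 4.49, 0.277 and 3.86 CPM in Nestin-creERT2, and at 22.3, 10.5 and 3.72 CPM in NG2-creERTM. Only NG2-creERTM replicates 1 and 2 were above the range of the other models, and replicate 3 was within it.

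The nuclear members were steadier across libraries than other coding genes above the same minimum level. The SD of log2 CPM over the 9 libraries had a median of 0.366 for the 70 nuclear members, against 0.534 for the 10967 other coding genes with a mean of at least 10 CPM and 0.464 for the 7 mitochondrial genes. The highest library exceeded the lowest 2.14-fold at the median nuclear member, with a range from 1.5-fold to 4.86-fold. The median for the other coding genes was 3.23-fold, and 3.0-fold for the mitochondrial genes. No test of these differences was made, since members share libraries.

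Summed over all members, the mitochondrial genes reached 20285 ± 3710.0, 21038 ± 2350.2 and 24089 ± 2865 CPM for Synapsin-cre, Nestin-creERT2 and NG2-creERTM, in that order (SD, n = 3). The nuclear members reached 8702 ± 709, 8890.2 ± 1011 and 10095 ± 956 CPM. The ratio of mitochondrial to nuclear reads was 2.88, 2.51 and 1.71 in Synapsin-cre, 2.35, 1.90 and 2.97 in Nestin-creERT2 and 2.46, 2.08 and 2.65 in NG2-creERTM. The models overlapped fully, and their mean ratios of 2.36 ± 0.598, 2.41 ± 0.541 and 2.39 ± 0.287 differed by far less than the spread within a model. Because 6 mitochondrial genes were nearly uncounted, the ratios compare libraries and are not the true proportion of the transcripts.

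The mitochondrial to nuclear ratio was also taken complex by complex. In complex I it was 3.87, 2.71 and 1.26 in Synapsin-cre, 2.90, 2.21 and 3.59 in Nestin-creERT2 and 2.82, 2.16 and 3.33 in NG2-creERTM. Synapsin-cre held both the highest and the lowest of the 9 values. In complex III, with mt-Cytb as the mitochondrial member, the ratio was 6.30, 3.65 and 2.53 in Synapsin-cre, 4.64, 4.64 and 7.16 in Nestin-creERT2 and 4.77, 4.45 and 7.10 in NG2-creERTM. Synapsin-cre replicates 2 and 3 were the lowest, and the models overlapped through replicate 1. In complex IV, where mt-Co1 gave nearly all mitochondrial reads, the ratio was 9.51, 10.1 and 7.97 in Synapsin-cre, 6.88, 5.51 and 7.81 in Nestin-creERT2 and 8.24, 7.0 and 9.87 in NG2-creERTM. Every Synapsin-cre library was above every Nestin-creERT2 library, though the closest pair differed only from 7.97 to 7.81.

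Of the nuclear sums, complex II was the one in which 2 models did not overlap. It was at 657, 569.8 and 618 CPM in Synapsin-cre, at 574, 489.8 and 569 CPM in Nestin-creERT2, and at 643, 737 and 648 CPM in NG2-creERTM. All NG2-creERTM libraries were above all Nestin-creERT2 libraries, and the Synapsin-cre libraries lay between and across them. The nuclear subunits of complex I summed to 2583 ± 349, 2629.6 ± 301 and 2935 ± 225 CPM in Synapsin-cre, Nestin-creERT2 and NG2-creERTM, and those of complex V to 3473 ± 171, 3506 ± 557 and 4201 ± 585 CPM (SD, n = 3), with overlapping libraries in each case.

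**Figure D2:**
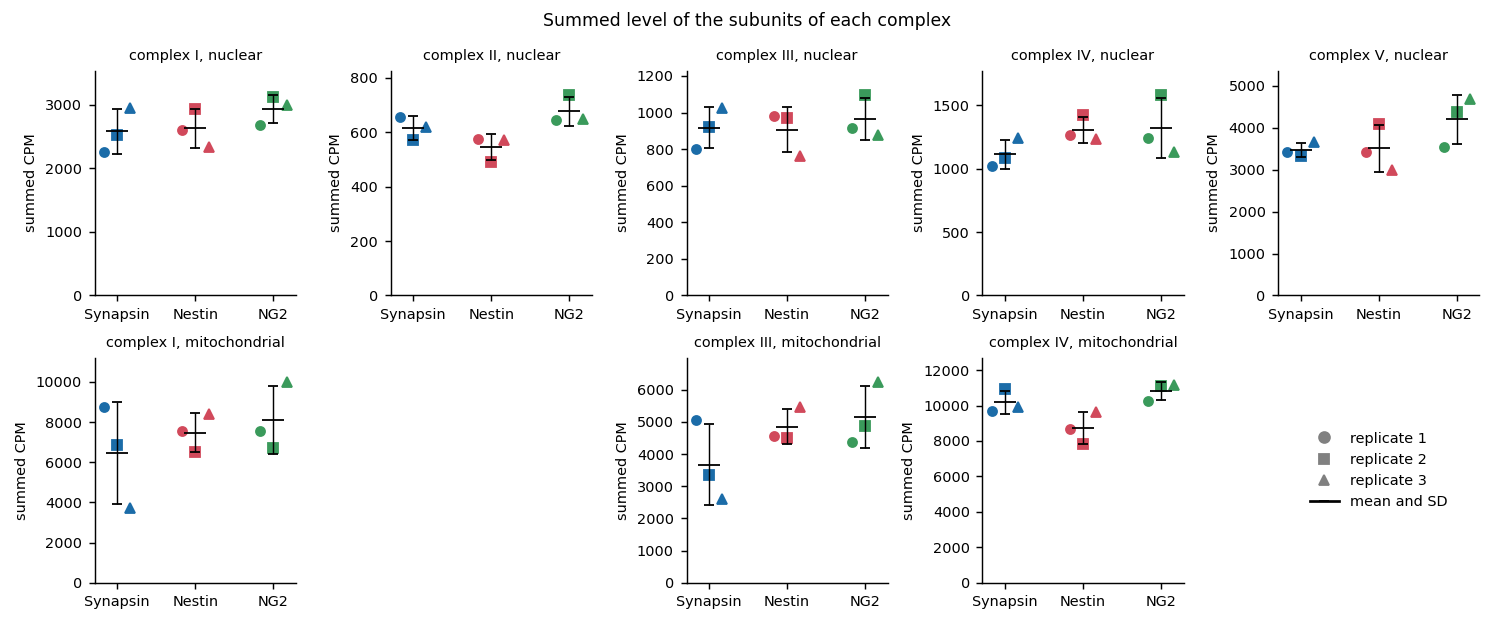
Summed CPM of the subunits of each complex (y axis) by model (x axis), nuclear members above and mitochondrial members below, 1 point per library with the mean and SD of 3 libraries. Among the nuclear sums, complex II alone has all NG2-creERTM libraries (643 to 737 CPM) above all Nestin-creERT2 libraries (489.8 to 574 CPM).

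Of the 92 members, 83 had enough reads to be tested, 7 mitochondrial and 76 nuclear. In the fit of all 9 libraries, edgeR's quasi-likelihood test (Benjamini-Hochberg adjustment) called 0 of the 83 at an adjusted p under 0.05 in NG2-creERTM minus Nestin-creERT2, where 0% of all 17947 genes were called. The count was also 0 in Synapsin-cre minus Nestin-creERT2 and in NG2-creERTM minus Synapsin-cre, again with 0% of all genes. The lowest adjusted p among members was 0.318, 0.329 and 0.357 in the 3 comparisons. These comparisons share libraries in pairs, so their values are not independent of each other.

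At an unadjusted p under 0.05, 8 of 83 members passed in NG2-creERTM minus Nestin-creERT2 (9.64%, against 11.3% of all genes), 1 in Synapsin-cre minus Nestin-creERT2 (1.2%, against 10.8%) and 5 in NG2-creERTM minus Synapsin-cre (6.02%, against 12.8%). All 3 shares were below that of all genes. The 8 were Ndufb9, Cox6c, Ndufa6, Atp5g2, Sdhc, Ndufa5 and Atp5g1, higher in NG2-creERTM, and Ndufs8, lower. DESeq2 called 1 member in NG2-creERTM minus Nestin-creERT2, Ndufb9, where it called 3.48% of all genes. It called 0 members in Synapsin-cre minus Nestin-creERT2 (2.77% of all genes) and 0 in NG2-creERTM minus Synapsin-cre (2.49%). At its unadjusted p under 0.05 it had 12 of 83 members in NG2-creERTM minus Nestin-creERT2 (against 14.4% of all genes), 2 in Synapsin-cre minus Nestin-creERT2 (against 13.5%) and 5 in NG2-creERTM minus Synapsin-cre (against 15.2%). The limma voom test called 0 members and 0% of all genes at the adjusted threshold in each comparison. At its unadjusted p under 0.05 it had 8 members (against 11.1% of all genes), 2 (against 10.4%) and 5 (against 8.95%), in the same order of comparisons.

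Fits of only the 2 models compared, with 6 libraries each, also called 0 members, against 1.39% of all genes in NG2-creERTM minus Nestin-creERT2, 0.0291% in Synapsin-cre minus Nestin-creERT2 and 0% in NG2-creERTM minus Synapsin-cre. Without Synapsin-cre replicate 1 the counts of members stayed at 0, against 0.671, 1.48 and 0.00541% of all genes in the same order.

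The direction of the members differed between comparisons. In NG2-creERTM minus Nestin-creERT2, 45 of 76 nuclear members had a positive log2 fold change, with a median of 0.09 against 0.02 for all genes tested. In Synapsin-cre minus Nestin-creERT2, 36 of 76 were positive, with a median of −0.07 against 0.13. For NG2-creERTM minus Synapsin-cre the count was 55 of 76, with a median of 0.20 against −0.08. By complex, the nuclear medians in the 3 comparisons were 0.09, −0.02 and 0.19 for complex I, 0.30, 0.16 and 0.27 for complex II and 0.11, 0.10 and 0.14 for complex III. They were −0.02, −0.26 and 0.26 for complex IV and 0.16, −0.14 and 0.27 for complex V. The 5 complexes differed in sign in the first 2 comparisons and were all positive in NG2-creERTM minus Synapsin-cre. The 7 mitochondrial genes had medians of 0.09, −0.29 and 0.45, with 6, 1 and 7 of them positive. Without Synapsin-cre replicate 1, which held more mitochondrial reads than the other Synapsin-cre libraries, the median of the mitochondrial genes moved to −0.69 in Synapsin-cre minus Nestin-creERT2 and to 0.80 in NG2-creERTM minus Synapsin-cre. The nuclear medians moved to −0.020 and 0.090. Leaving out NG2-creERTM replicate 2 turned the nuclear median of NG2-creERTM minus Nestin-creERT2 to −0.04, leaving out NG2-creERTM replicate 3 turned the mitochondrial one to −0.07, and leaving out Nestin-creERT2 replicate 2 turned the nuclear median of Synapsin-cre minus Nestin-creERT2 to 0.01.

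**Figure D3:**
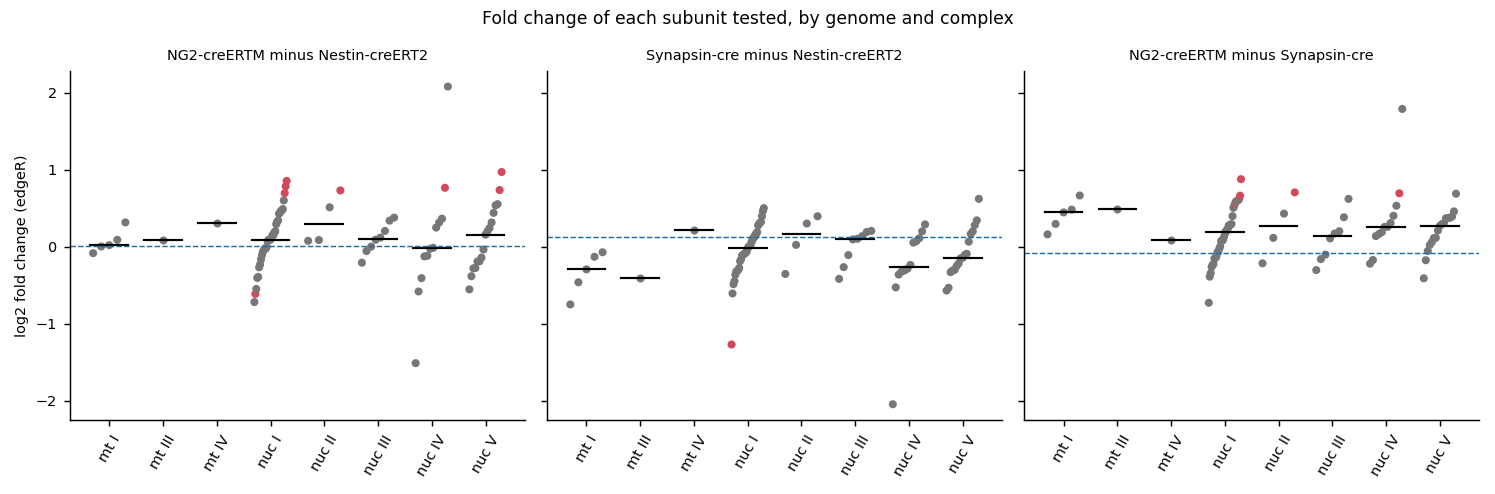
Log2 fold change of each of the 83 members tested (y axis) by genome and complex (x axis) in the 3 comparisons, with black lines at the median of each class and a dashed line at the median of all genes; red points have an unadjusted p under 0.05. Most points lie near 0, and 8, 1 and 5 are red in the 3 panels.

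Between NG2-creERTM and Nestin-creERT2, 16 members (19.3%) were higher in every NG2-creERTM library than in every Nestin-creERT2 library, against 11.0% of all genes tested. Only 4 members (4.82%) were lower without overlap, against 14.2% of all genes. Among the 16 were Cox5b, Ndufb3, Sdhc, Ndufb6, Sdhb, Ndufa4, Ndufa5, Ndufa9, Atp5b, Atp5g1, Cox6c, Ndufb9, Ndufa6, Atp5g2 and mt-Co1, and the 4 were Ndufa8, Ndufs8, Ndufv1 and Cox8a. None of the 20 passed edgeR's adjusted threshold. The 4 members with the smallest p all lie on chromosome 15, and are described first.

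Ndufb9 (chr15:58933756-58939488, plus strand, GRCm38) encodes an accessory subunit of complex I. It was at 76.9, 110.0 and 103 CPM in Synapsin-cre, at 95.7, 78.6 and 79.5 CPM in Nestin-creERT2, and at 151, 151 and 158 CPM in NG2-creERTM. All NG2-creERTM libraries were above the other 6, and the 3 lay close together. Its log2 fold change was 0.86 (SE 0.25) for NG2-creERTM minus Nestin-creERT2, with an adjusted p of 0.318 in edgeR's quasi-likelihood test, and 0.66 (SE 0.25, adjusted p 0.357) for NG2-creERTM minus Synapsin-cre. DESeq2 gave 0.87 (SE 0.26) with an adjusted p of 0.0270 for the first. The annotated gene Gm49356 overlaps 28.6% of the exon bases of Ndufb9 on the same strand. It shares 23.4% of the windows of Ndufb9, so the count of Ndufb9 may leave out reads.

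Cox6c (chr15:35925886-35938246, minus strand) encodes a small nuclear subunit of cytochrome c oxidase. It was at 97.8, 137 and 124 CPM in Synapsin-cre, at 123, 101 and 117 CPM in Nestin-creERT2, and at 224, 206 and 150.3 CPM in NG2-creERTM. The NG2-creERTM libraries were again above all others, with replicate 3 nearest to them, and the log2 fold change from Nestin-creERT2 was 0.77 (SE 0.27, adjusted p 0.371, edgeR). The complex I accessory subunit gene Ndufa6 (chr15:82350140-82354322, minus strand) was at 52.8, 71.1 and 90.6 CPM, at 76.1, 54.2 and 60.6 CPM, and at 125, 119.9 and 84.0 CPM in the same order of models. NG2-creERTM replicate 3 fell below Synapsin-cre replicate 3, so that only the Nestin-creERT2 libraries were clear of it, at a log2 fold change of 0.79 (SE 0.30, adjusted p 0.402, edgeR).

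Atp5g2 (chr15:102662864-102672352, minus strand) encodes the c subunit of the rotating ring of ATP synthase. It was at 20.9, 40.3 and 52.1 CPM in Synapsin-cre, at 36.6, 31.9 and 24.8 CPM in Nestin-creERT2, and at 64.7, 70.2 and 47.9 CPM in NG2-creERTM, a log2 fold change of 0.97 (SE 0.37, adjusted p 0.405, edgeR) for NG2-creERTM minus Nestin-creERT2. Of its windows 87.4% are shared with other annotated transcripts, so its count may leave out reads. The genes Atp5g1 and Atp5g3 encode the same mature c subunit. Atp5g1 was at 63.6, 92.6 and 113 CPM in Synapsin-cre, at 54.7, 76.5 and 43.9 CPM in Nestin-creERT2, and at 109, 106 and 76.9 CPM in NG2-creERTM. The lowest NG2-creERTM library was just above the highest Nestin-creERT2 library. Atp5g3 went the other way in its means, from 191 ± 31.6 CPM in Nestin-creERT2 to 157 ± 19.6 CPM in NG2-creERTM (SD, n = 3), at a log2 fold change of −0.28 (SE 0.26, adjusted p 0.733, edgeR).

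The promoters of Ndufa6 and Atp5g2 are shown because both genes were higher in NG2-creERTM and lie on the same chromosome, so that their start regions can be compared. They are from RefSeq (GRCm38.p6) and run from 250 bases before the gene's start to 50 after it, with the core of the NRF1 motif in capitals where it occurs. That of Ndufa6 lies at chr15:82354242-82354541 and that of Atp5g2 at chr15:102670998-102671297, both on the minus strand.
Ndufa6: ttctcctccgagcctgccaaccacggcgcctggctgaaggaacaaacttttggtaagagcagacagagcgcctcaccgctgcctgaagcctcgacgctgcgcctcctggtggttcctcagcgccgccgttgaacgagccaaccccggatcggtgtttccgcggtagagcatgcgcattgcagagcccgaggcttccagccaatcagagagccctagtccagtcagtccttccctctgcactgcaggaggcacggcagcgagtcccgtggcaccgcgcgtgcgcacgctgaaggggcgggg
Atp5g2: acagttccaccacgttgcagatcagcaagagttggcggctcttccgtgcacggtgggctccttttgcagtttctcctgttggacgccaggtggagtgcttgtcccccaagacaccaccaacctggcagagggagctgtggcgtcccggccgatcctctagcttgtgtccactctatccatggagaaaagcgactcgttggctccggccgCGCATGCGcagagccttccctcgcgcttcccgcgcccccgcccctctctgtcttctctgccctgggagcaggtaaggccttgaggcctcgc
NRF1, the ETS factor GABP and YY1 are textbook regulators of nuclear respiratory genes. The motif cores searched on both strands were CGCATGCG for NRF1 (its own reverse complement), CCGGAAG for ETS factors and AAGATGGC for YY1. The Ndufa6 window held none of these 3 exact strings, and variants of the motifs were not searched. A promoter row was found for 66 of the 79 nuclear members, and for 27025 genes in all. The NRF1 core occurred in 9 of the 66 members (13.6%, against 2.07% of all these genes), the ETS core in 16 (24.2%, against 9.93%) and the YY1 core in 10 (15.2%, against 3.19%). At least 1 of the 3 was present in 29 of the 66 (43.9%, against 14.15% of all these genes). A match is a description of letters and does not show that a factor binds there.

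In complex II, Sdhc, a membrane anchor of succinate dehydrogenase, was at 88.4, 118 and 88.8 CPM in Synapsin-cre, at 108, 70.7 and 111 CPM in Nestin-creERT2, and at 139, 145 and 198 CPM in NG2-creERTM. All NG2-creERTM libraries were above the other 6, with log2 fold changes of 0.73 (SE 0.29, adjusted p 0.413, edgeR) from Nestin-creERT2 and 0.71 (SE 0.29, adjusted p 0.376) from Synapsin-cre. Sdhb was at 103, 165 and 171 CPM in Synapsin-cre, at 103, 109 and 122 CPM in Nestin-creERT2, and at 178, 138 and 159.8 CPM in NG2-creERTM. The Nestin-creERT2 libraries were lower than every NG2-creERTM library, and Synapsin-cre spanned both. Sdha, the catalytic subunit, showed no such order, with Synapsin-cre replicate 1 highest at 401 CPM and the other 8 libraries between 198 and 325 CPM.

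The clearest member on the lower side was Ndufs8, an iron-sulfur subunit of complex I. It was at 56.1, 50.7 and 38.6 CPM in Synapsin-cre, at 70.3, 70.1 and 63.0 CPM in Nestin-creERT2, and at 45.5, 44.6 and 43.0 CPM in NG2-creERTM. The Nestin-creERT2 libraries were above all 6 others. The log2 fold change was −0.61 (SE 0.25, adjusted p 0.421, edgeR) for NG2-creERTM minus Nestin-creERT2. Ndufa4 was at 131, 104 and 193 CPM in Synapsin-cre, at 147, 148 and 151 CPM in Nestin-creERT2, and at 191, 199.9 and 218 CPM in NG2-creERTM. Its Nestin-creERT2 libraries lay close together and below all NG2-creERTM libraries, without passing the test.

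The 2 major subunits of the catalytic head of ATP synthase were among the most abundant nuclear members. Atp5b was at 1206, 1116 and 1282 CPM in Synapsin-cre, at 1051, 1219 and 938 CPM in Nestin-creERT2, and at 1236, 1679 and 1744 CPM in NG2-creERTM. NG2-creERTM replicate 1 was barely above the highest Nestin-creERT2 library, and replicates 2 and 3 were well above it. Atp5a1 was at 908, 697 and 604 CPM in Synapsin-cre, at 736, 703 and 669.9 CPM in Nestin-creERT2, and at 660.2, 868 and 1332 CPM in NG2-creERTM. Its models overlapped, and NG2-creERTM replicate 3 was the highest of the 9 libraries. In complex IV, Cox6a1 was at 159, 242 and 233 CPM in Synapsin-cre, at 229, 322 and 219.9 CPM in Nestin-creERT2, and at 235, 330.5 and 193 CPM in NG2-creERTM, with replicate 2 highest in every model.

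Between Synapsin-cre and Nestin-creERT2, 3 members (3.61%) were higher without overlap, against 8.46% of all genes, and 4 (4.82%) were lower, against 6.26%. Cox5b and mt-Co1 were among the 3, and the 4 were Ndufa1, Atp5d, Ndufb4 and Ndufs8. Ndufa1, an X-linked accessory subunit of complex I, was the member with an unadjusted p under 0.05. Its levels were 26.8, 46.4 and 39.5 CPM in Synapsin-cre, at 54.4, 86.7 and 130.5 CPM in Nestin-creERT2, and at 65.4, 82.5 and 59.2 CPM in NG2-creERTM. Every Synapsin-cre library was below the other 6, at a log2 fold change of −1.27 (SE 0.37, adjusted p 0.329, edgeR) from Nestin-creERT2.

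The other 2 X-linked nuclear members that were tested leaned the same way. Ndufb11, a complex I accessory subunit, was at 64.7, 93.3 and 119 CPM in Synapsin-cre, at 115, 201 and 106 CPM in Nestin-creERT2, and at 126, 146 and 149 CPM in NG2-creERTM. Cox7b, a subunit of cytochrome c oxidase, was at 82.1, 81.7 and 123 CPM, at 133, 189 and 91.5 CPM, and at 104, 132 and 144 CPM in the same order of models. Both overlapped between Synapsin-cre and Nestin-creERT2, at log2 fold changes of −0.61 (SE 0.34) and −0.53 (SE 0.33), and neither passed edgeR's test, with adjusted p of 0.555 and 0.604. The muscle isoform Cox6a2 had the largest log2 fold change in that comparison, at −2.04 (SE 1.25, adjusted p 0.589, edgeR), from at most 6.64 CPM. It was at 2.61, 0.0276 and 0.361 CPM in Synapsin-cre, and −4.40 (adjusted p 0.091) without replicate 1.

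Between NG2-creERTM and Synapsin-cre, 10 members (12.05%) were higher in NG2-creERTM without overlap, against 5.76% of all genes, and 2 (2.41%) were lower, against 8.04%. The 10 were Ndufb3, Sdhc, Ndufb11, Ndufa1, Ndufa5, Ndufc2, Cox6c, Ndufb9, Atp5o and Ndufa2. Of these, 7 belong to complex I, which holds 35 of the 76 nuclear members tested. The 2 lower members, Ndufa8 and Ndufs3, belong to complex I too. Ndufb3, a small accessory subunit of complex I, was at 32.5, 35.1 and 28.4 CPM in Synapsin-cre, at 36.4, 34.3 and 31.1 CPM in Nestin-creERT2, and at 48.1, 51.4 and 43.5 CPM in NG2-creERTM. Its NG2-creERTM libraries were above the other 6, at a log2 fold change of 0.57 (SE 0.25, adjusted p 0.390, edgeR) from Synapsin-cre. Ndufa1 differed by 0.88 (SE 0.37, adjusted p 0.377).

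The nuclear members followed the other genes of their chromosomes. The 76 tested members lie on 19 of the 20 chromosomes compared, and for each chromosome the median log2 fold change of the members was set beside that of the other coding genes there with a mean of at least 2 CPM (13196 genes in all). The 2 medians had the same sign on 18, 17 and 11 of 19 chromosomes in NG2-creERTM minus Nestin-creERT2, Synapsin-cre minus Nestin-creERT2 and NG2-creERTM minus Synapsin-cre. Across the 19 chromosomes Pearson's r was 0.936, 0.875 and 0.853, and Spearman's rho 0.949, 0.839 and 0.772. These describe chromosomes that share the same libraries and scaling, and carry no p. The SD of the members' log2 fold changes was 0.472, 0.386 and 0.365, and 0.354, 0.316 and 0.299 once the median of their chromosome was subtracted.

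On chromosome 15, the 528 other coding genes had a median log2 fold change of 0.60 in NG2-creERTM minus Nestin-creERT2, the highest of the 20 chromosomes, with 82.6% of the genes positive and 41.9% higher without overlap. The 4 members there had a median of 0.82, and all 4 were positive. By library, the other genes of chromosome 15 deviated from the 9-library mean by −0.19, −0.15 and 0.01 in Synapsin-cre, −0.02, −0.52 and −0.15 in Nestin-creERT2 and 0.50, 0.32 and 0.23 in NG2-creERTM (median log2). NG2-creERTM replicate 3, with the smallest of the 3 deviations, was also the lowest NG2-creERTM library for Cox6c, Ndufa6 and Atp5g2, but the highest for Ndufb9. Chromosome 2 had the lowest median of that comparison, −0.56 over 1046 genes, of which 49.0% were lower without overlap, and its 5 members had a median of −0.40. Chromosome 19, which carries Ndufs8, came next with −0.39 over 457 genes and −0.60 for its 4 members.

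The X chromosome had the lowest median of Synapsin-cre minus Nestin-creERT2, −0.33 over 469 genes, where Ndufa1, Ndufb11 and Cox7b had a median of −0.61. Its genes deviated by −0.32, −0.21 and −0.19 in Synapsin-cre, 0.19, 0.35 and −0.04 in Nestin-creERT2 and 0.12, 0.02 and 0.11 in NG2-creERTM. The labels give no sex, but the models also differed in sex-linked genes. Xist, the RNA of the inactive X, was at 1.02 to 1.28 CPM in Synapsin-cre and at 777, 931 and 1808 CPM in Nestin-creERT2, and within NG2-creERTM it was at 0.988, 1319 and 1.26 CPM. Between Synapsin-cre and Nestin-creERT2 the level of Xist split fully by model. There sex, as far as Xist reflects it, cannot be told apart from model. Whether chromosome copy number plays a part in the members' differences, or sex in the other comparisons, was not tested.

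**Figure D4:**
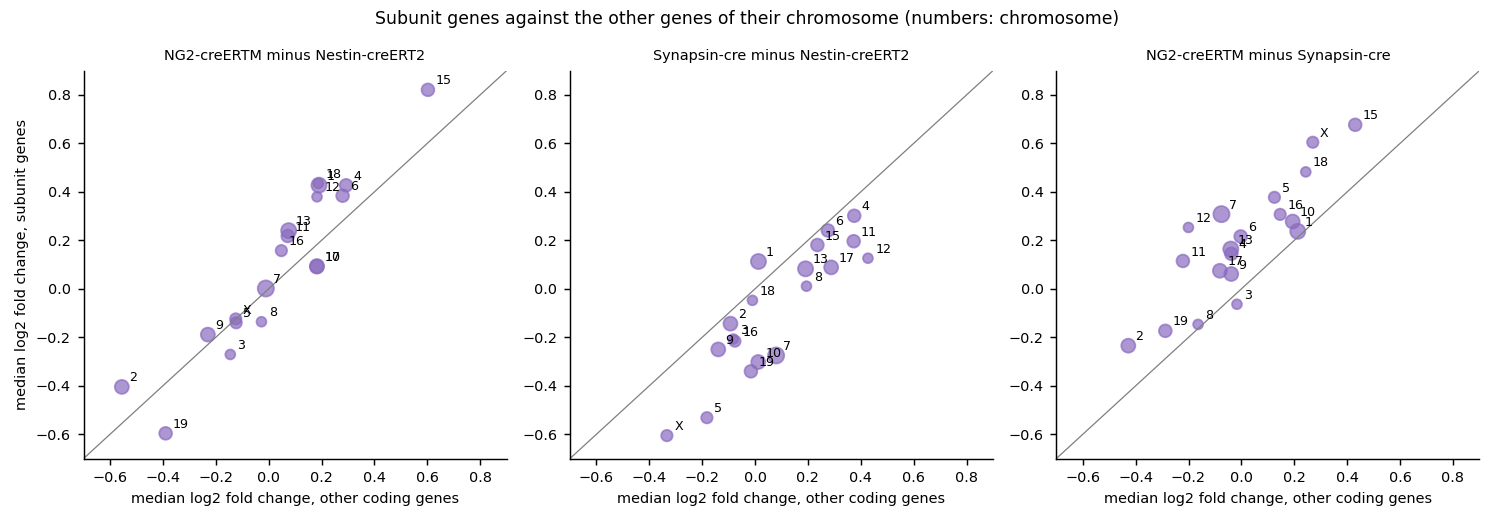
Median log2 fold change of the nuclear members of a chromosome (y axis) against that of its other coding genes (x axis), 1 point per chromosome, sized by the number of members, with the line of equality, in the 3 comparisons. Chromosome 15 stands highest at 0.60 and 0.82 in NG2-creERTM minus Nestin-creERT2, and X lowest at −0.33 and −0.61 in Synapsin-cre minus Nestin-creERT2.

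Shorter and longer nuclear members differed in level within several libraries, most of all in Synapsin-cre replicate 1. With the 76 members split into 38 shorter and 38 longer than 823.5 bases, Synapsin-cre replicate 1 was the lowest of the 9 libraries for 19 of the shorter members and 3 of the longer. Its median log2 deviation from the 9-library mean was −0.46 for the shorter and −0.13 for the longer. Other coding genes showed the same split, with −0.77 over 230 shorter genes and −0.08 over 10737 longer ones. In NG2-creERTM replicate 1 the split of the members went the other way, at 0.14 for the shorter and −0.067 for the longer, and it was the lowest library for 3 shorter and 11 longer members. Low values of small subunits in Synapsin-cre replicate 1 thus occurred beside low values of short transcripts at large. Examples in Synapsin-cre replicate 1 were Atp5g2 at 20.9 CPM, Ndufa1 at 26.8 CPM and Ndufa6 at 52.8 CPM. The same library held mt-Rnr1, a mitochondrial ribosomal RNA, at 1098 CPM against 88.2 to 280.0 CPM elsewhere. The part of RNA quality or library preparation was not tested.

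**Figure D5:**
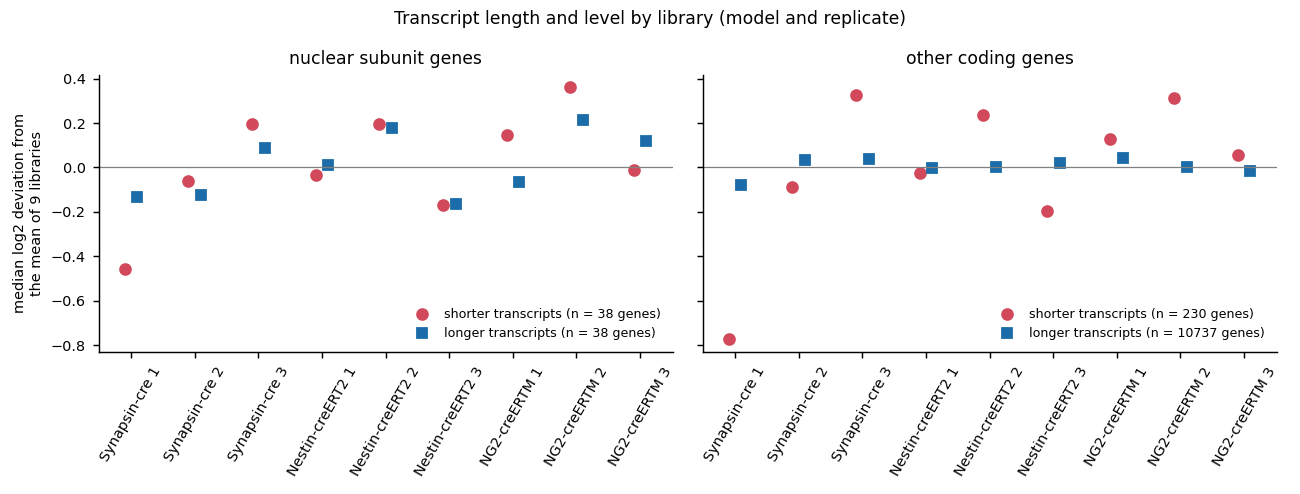
Median log2 deviation from the mean of the 9 libraries (y axis) for shorter and longer transcripts in each library (x axis), for the nuclear members (38 shorter, 38 longer) and for other coding genes. Synapsin-cre replicate 1 is lowest for shorter transcripts in both panels, at −0.46 and −0.77.

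Other genes of the pathway gave 0 calls in the same edgeR fit of 9 libraries in all 7 lists. That fit called 0% of all 17947 genes in each comparison, so the 0 calls do not set these lists apart. The 43 assembly factors had median log2 fold changes of 0.03, 0.06 and −0.04 in NG2-creERTM minus Nestin-creERT2, Synapsin-cre minus Nestin-creERT2 and NG2-creERTM minus Synapsin-cre, and the 77 measured mitochondrial ribosomal proteins 0.17, 0.02 and 0.10. Without Synapsin-cre replicate 1 the last 2 medians became 0.0075 and −0.099 for the assembly factors and 0.21 and −0.095 for the ribosomal proteins, with a change of sign in NG2-creERTM minus Synapsin-cre. The assembly factor Cox14, which also lies on chromosome 15 and is needed to make cytochrome c oxidase, was at 40.7, 35.4 and 47.5 CPM in Synapsin-cre, at 45.2, 31.4 and 38.4 CPM in Nestin-creERT2, and at 99.2, 87.2 and 75.1 CPM in NG2-creERTM. All NG2-creERTM libraries were well above the rest, at log2 fold changes of 1.19 (SE 0.27, adjusted p 0.255, edgeR) from Nestin-creERT2 and 1.08 (SE 0.27, adjusted p 0.357) from Synapsin-cre. Cyc1, the cytochrome c1 of complex III and likewise on chromosome 15, was at 148, 136 and 213 CPM, at 178, 119 and 133 CPM, and at 239, 244 and 195 CPM in the same order of models.

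The 13 enzymes of the tricarboxylic acid cycle, which supply the chain with NADH and succinate, had medians of 0.25, 0.05 and 0.09, of which the last 2 became 0.13 and 0.15 without Synapsin-cre replicate 1. Fumarase (Fh1) was at 64.1, 61.7 and 70.5 CPM in Synapsin-cre, at 63.9, 71.2 and 55.0 CPM in Nestin-creERT2, and at 109, 88.4 and 129 CPM in NG2-creERTM, higher there than in all other libraries but not past the threshold (log2 fold change 0.78, SE 0.25, adjusted p 0.337, edgeR, from Nestin-creERT2). The 19 genes of glycolysis had larger medians than the members, 0.65, 1.01 and −0.32, with 15, 17 and 3 of them positive, and the last 2 medians were 1.19 and −0.52 without Synapsin-cre replicate 1. Enolase (Eno1) was at 344, 919 and 1336 CPM in Synapsin-cre, at 456, 260.4 and 289 CPM in Nestin-creERT2, and at 901, 1061 and 502 CPM in NG2-creERTM. NG2-creERTM was above Nestin-creERT2 throughout, while Synapsin-cre replicate 1 lay among the Nestin-creERT2 values.

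Among the 9 regulators of mitochondrial biogenesis, the coactivator Ppargc1a turned on 1 library. It was at 126 CPM in Synapsin-cre replicate 1 but at 2.70 and 2.10 CPM in replicates 2 and 3, with 15, 25.6 and 24.4 CPM in Nestin-creERT2, and at 10.8, 14.1 and 6.40 CPM in NG2-creERTM. With all libraries the log2 fold change was 1.01 (SE 1.25, adjusted p 0.814, edgeR) for Synapsin-cre minus Nestin-creERT2, and without replicate 1 it was −3.18 (SE 0.51, adjusted p 0.0326). That library is also the one with high neuron markers, and Ppargc1a is known to be high in neurons. The part of its cell mixture was not tested. Synapsin-cre replicates 2 and 3, lowest in Ppargc1a, were also the lowest 2 libraries for mt-Nd2, mt-Nd4, mt-Nd5 and mt-Cytb. They were not so for mt-Nd1, mt-Nd6 and mt-Co1, and replicate 2 held mt-Nd1 at 3076 CPM and mt-Co1 at 10910.5 CPM. The nuclear member sums of these replicates, 8438 and 9505 CPM, lay within the range of the other libraries. A link between Ppargc1a and the members was not tested.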

How the data were processed

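The deposited files hold raw read counts per gene for each of 9 libraries, and the submitters' processing notes name STAR, HTSeq and the build mm10 without versions. The stranded column with the larger totals was used; the opposite strand carried 3.25 to 3.64% of reads. Reads not counted in a gene, 17.9 to 27.3% of a library, multimapping reads among them, entered neither totals nor tests. Symbols came from GENCODE vM21 on GRCm38 for 46005 of 46517 identifiers, and 512 stayed without one. CPM were computed here with TMM size factors.

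Genes kept by filterByExpr were tested with the quasi-likelihood test of edgeR 4.0.16 (R 4.3.3), fitted to all 9 libraries with model as the factor. The test was 2-sided, p-values were adjusted by Benjamini-Hochberg over 17947 genes, and 0.05 was the threshold. The biological coefficient of variation was 0.612. The code was tested on simulated data. Non-overlap means that every library of 1 model lay above every library of the other. Copies of mitochondrial genes were found by comparing annotated transcripts over 50-base windows, and no genome sequence was used. Member and pathway lists and the tests were chosen with earlier results of these data known. The naming rule took every mitochondrial member, the 2 nuclear members of each complex highest per kilobase, the 4 members with the smallest p in each comparison, the Cox6a, Cox6b, Cox7a, Cox7b, Cox8 and Atp5g families and Ndufa4, 42 symbols in all, and of each pathway list the 2 genes with the smallest p in each comparison. Other genes named were chosen after their values were seen. Alternatives were size factors by upper quartile or by relative log expression, totals without mitochondrial genes, no filter or one of 1 CPM in at least 3 libraries, DESeq2 1.42.0, limma voom (limma 3.58.1), unstranded counts, fits of 2 models and fits without each library. The fit of 2 models without Synapsin-cre replicate 1 was added after seeing the data. Other scripts ran in Python 3.11.15 with pandas 2.3.3, numpy 2.4.6 and matplotlib 3.10.9. Not every nuclear subunit, nor every gene taken by the naming rule, is reported here. Ndufa7 and Uqcr10 are among the symbols left out, and Ndufa4l2 and Ldhb among the pathway genes.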

Additional observations from a re-analysis of the deposited data

How the results depend on the processing

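Of 440 values recomputed under the alternatives, over 28 results, 432 stayed on the same side of the threshold or within the spread between replicates. This measure is lenient, since the main edgeR fit called 0% of all genes and an uncalled value with another sign could still count as the same. Of these 432, 4 had another sign, all uncalled: the 3 medians of members given above for fits without 1 library, and Ppargc1a at −1.47 in limma voom. DESeq2 called 1 member (Ndufb9, log2 fold change 0.87, adjusted p 0.0270) in NG2-creERTM minus Nestin-creERT2, where edgeR and limma voom called 0. Without Synapsin-cre replicate 1 the median log2 fold change of the mitochondrial members moved to −0.69 in Synapsin-cre minus Nestin-creERT2 and to 0.80 in NG2-creERTM minus Synapsin-cre, and in fits of the 2 models without that library to −0.69 and 0.82. Leaving out each library in turn gave −0.69 to −0.068 and 0.23 to 0.80. Ppargc1a in Synapsin-cre minus Nestin-creERT2 reversed from 1.01 to −3.18 without that library and to −3.17 in the fit of 2 models without it, with −3.18 to 1.47 over all fits that left 1 library out. The 3 scalings turned no median of the members. The cause of these changes was not tested, beyond the levels of that library given above. No paired analysis was possible because the replicate numbers were given here in accession order, and nothing in the labels ties a number to an animal, litter or day shared between models. The 6 mitochondrial genes near 0 give no comparison at this depth.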
